A study of Mus musculus with 10 samples.

Results

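The forkhead genes encode transcription factors that share a winged-helix DNA-binding domain, and 37 of them, from Foxa1 to Foxs1, were followed through a mouse differentiation series by ATAC-seq, in which a transposase cuts and tags open DNA. A region of open chromatin was given to the protein-coding gene whose span was nearest and lay within 50 kb, and 668 of the 246799 counted regions went to these 37 of 21883 genes. The number of regions per gene ran from 2 at Foxm1 and Foxs1 to 115 at Foxp1, whose span is long. A gene's value is the sum of the counts over its regions, so it describes accessibility and not expression, and nearness leaves the true target of a region unknown. Of the 668 regions, 7 were as near to another gene and counted for the forkhead gene: 3 at Foxn3 and Gm51999, 2 at Foxa1 and Ttc6, 1 at Foxh1 and Ppp1r16a, and 1 at Foxm1 and Tex52. All 37 genes and 495 of the 668 regions passed the filter on low counts. Other forkhead genes were not analysed here.

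The cells were wild-type ES-Bruce4 embryonic stem cells, a C57BL/6 mouse line, differentiated in culture toward neuromesodermal progenitors, the caudal cells that supply spinal cord and paraxial mesoderm. All groups received bFgf from day 0, and the Wnt pathway activator CHIR99021 was present from day 2. The 5 groups were day 2, day 3, day 6, day 7 without Gdf11, and day 7 after 24 h of Gdf11 at 50 ng/ml, a TGF-beta family ligand given from day 6. Each group had 2 libraries, and the labels do not say whether these came from separate cultures, so p-values here cover only the spread of libraries, which may be technical. Totals ran from 7150334 to 12335735 counts per library, and replicate 1 was the deeper library in each group. In such bulk samples, fewer cells of a type and less open chromatin per cell cannot be told apart. The feeder fibroblasts on which the stem cells were kept before plating are a further possible source of chromatin.

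Forkhead factors bind a short core sequence, and members of the Foxa class can bind it in closed chromatin, for which they are called pioneer factors. In the early embryo Foxh1 brings Smad2 and Smad3 to targets of Nodal signalling, Foxd3 maintains pluripotent cells, Foxa2 marks node, notochord, floor plate and endoderm, and Foxc1 and Foxc2 act in the somites. Foxb1 is a factor of the neural tube, and the Foxo proteins are held out of the nucleus by Akt downstream of insulin signalling.

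Promoter sequences of 5 members are shown. The promoter regions of Foxa3 and Foxf2 passed the test from day 3 to day 6, both lower, and in no other comparison. Those of Foxi3, Foxd3 and Foxc1 passed in no comparison, although a distal region of each of these 3 genes changed from day 2 to day 3. Not passing does not mean unchanged: the log2 change of the Foxd3 promoter region in that step was -0.86, with a standard error of 0.41. Each sequence is the 250 bases before the annotated start, 5′ to 3′ on the strand of the gene, from RefSeq on GRCm38.p6, the assembly behind mm10. The locations are chr7:19023540-19023789 (minus strand, Foxa3), chr13:31625566-31625815 (plus, Foxf2), chr6:70956356-70956605 (plus, Foxi3), chr4:99656049-99656298 (plus, Foxd3) and chr13:31806396-31806645 (plus, Foxc1). Capitals mark matches on either strand to 5 short motifs: the forkhead core TGTTTAC, the Foxh1 core TGTGGAT, the GC box GGGCGG, the CCAAT box and the TATA box TATAAA.
Foxa3: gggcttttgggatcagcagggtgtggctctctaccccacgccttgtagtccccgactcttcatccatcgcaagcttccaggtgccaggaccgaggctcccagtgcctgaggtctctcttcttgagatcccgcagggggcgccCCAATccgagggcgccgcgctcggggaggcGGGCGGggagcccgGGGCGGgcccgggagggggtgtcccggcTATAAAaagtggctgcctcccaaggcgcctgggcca
Foxf2: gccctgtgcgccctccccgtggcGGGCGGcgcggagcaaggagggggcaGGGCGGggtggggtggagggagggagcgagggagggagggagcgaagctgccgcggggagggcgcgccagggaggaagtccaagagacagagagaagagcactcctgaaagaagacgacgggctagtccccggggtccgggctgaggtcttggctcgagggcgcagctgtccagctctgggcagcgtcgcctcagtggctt
Foxi3: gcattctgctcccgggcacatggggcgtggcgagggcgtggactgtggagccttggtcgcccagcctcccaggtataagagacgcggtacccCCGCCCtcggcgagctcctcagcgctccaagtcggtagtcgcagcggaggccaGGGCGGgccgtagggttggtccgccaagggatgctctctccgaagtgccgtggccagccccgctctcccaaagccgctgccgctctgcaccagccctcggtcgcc
Foxd3: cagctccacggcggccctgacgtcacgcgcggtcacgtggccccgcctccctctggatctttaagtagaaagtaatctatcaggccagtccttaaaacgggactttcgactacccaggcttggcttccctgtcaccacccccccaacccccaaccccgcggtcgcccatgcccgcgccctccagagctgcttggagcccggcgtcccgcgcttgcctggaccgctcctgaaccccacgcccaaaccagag
Foxc1: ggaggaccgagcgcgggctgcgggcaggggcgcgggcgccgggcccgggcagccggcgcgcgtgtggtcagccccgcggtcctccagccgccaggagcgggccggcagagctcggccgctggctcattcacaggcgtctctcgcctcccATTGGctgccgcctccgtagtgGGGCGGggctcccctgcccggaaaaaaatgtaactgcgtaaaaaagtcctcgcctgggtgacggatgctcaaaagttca
The Foxa3 promoter held 2 GC boxes, 1 CCAAT box and 1 TATA box, those of Foxf2 and Foxi3 held 2 GC boxes each, that of Foxc1 held 1 GC box and 1 CCAAT box, and that of Foxd3 held none of the 5 motifs. Their GC content ran from 65.6% at Foxd3 to 71.6% at Foxf2. The promoter table had entries for 24 members, with 28 promoters of 300 bases (250 before and 50 after the start). A GC box lay in 82.1% of these 28 promoters against 35.7% of all 32851 promoters, a CCAAT box in 42.9% against 37.4%, and a TATA box in 7.14% against 13.6%. The forkhead core lay in 1 of the 28, that of Foxa1 (3.57% against 3.65% of all), and the Foxh1 core in none (against 3.38% of all). A match describes the letters and is no evidence of binding.

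Counts were compared with edgeR's quasi-likelihood test over all genes, and a change counted as called at a Benjamini-Hochberg adjusted p of at most 0.05. From day 2 to day 3, 12 of the 37 genes changed, 4 higher and 8 lower (32.4% of the members, against 22.8% of all 18649 genes tested). From day 3 to day 6, 10 changed, 4 higher and 6 lower (27% of the members, against 20.3% of all genes, 9.54% higher and 10.8% lower), and from day 6 to day 7, 5 changed, 3 higher and 2 lower (13.5%, against 4.35%, 3.65% higher and 0.702% lower). With Gdf11, 9 were lower and 0 higher than on untreated day 7 (24.3%, against 13.5% of all genes, 2.11% higher and 11.4% lower), and 3 were lower and 0 higher than on day 6 (8.11%, against 1.93%, 0.638% higher and 1.29% lower). At an unadjusted p under 0.05 the number of members in the 5 comparisons was 15, 16, 8, 13 and 10. Of all 18649 genes the numbers were 6590, 6031, 3466, 5140 and 2692. DESeq2 called 9, 7, 4, 8 and 3 members in the same order, with an adjusted p for 37, 37, 28, 31 and 37 of them. Over all genes with an adjusted p it called 3088 of 18763, 2881 of 18392, 884 of 11715, 2059 of 13198 and 200 of 18763. Consecutive steps share a group, and both Gdf11 comparisons share the treated libraries, so these counts are not independent of each other. Across the 5 comparisons 22 members were called at least once. Foxa2, Foxb1 and Foxo3 were called in 3 or more, and 15 in none, among them Foxa1, Foxb2, Foxd2, Foxf1, Foxf2 and Foxp2. The 2 libraries of a group did not overlap with the 2 of the other group for any called member, and in all for 21, 24, 23, 24 and 19 of the 37 genes, against 58.4%, 59.3%, 53.1%, 57.2% and 45.5% of all genes. The median log2 change of the 37 genes was -0.07, -0.09, -0.06, -0.07 and -0.05 in the 5 comparisons, beside 0.00, -0.02, 0.05, -0.10 and -0.05 over all genes.

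**Figure D1:**
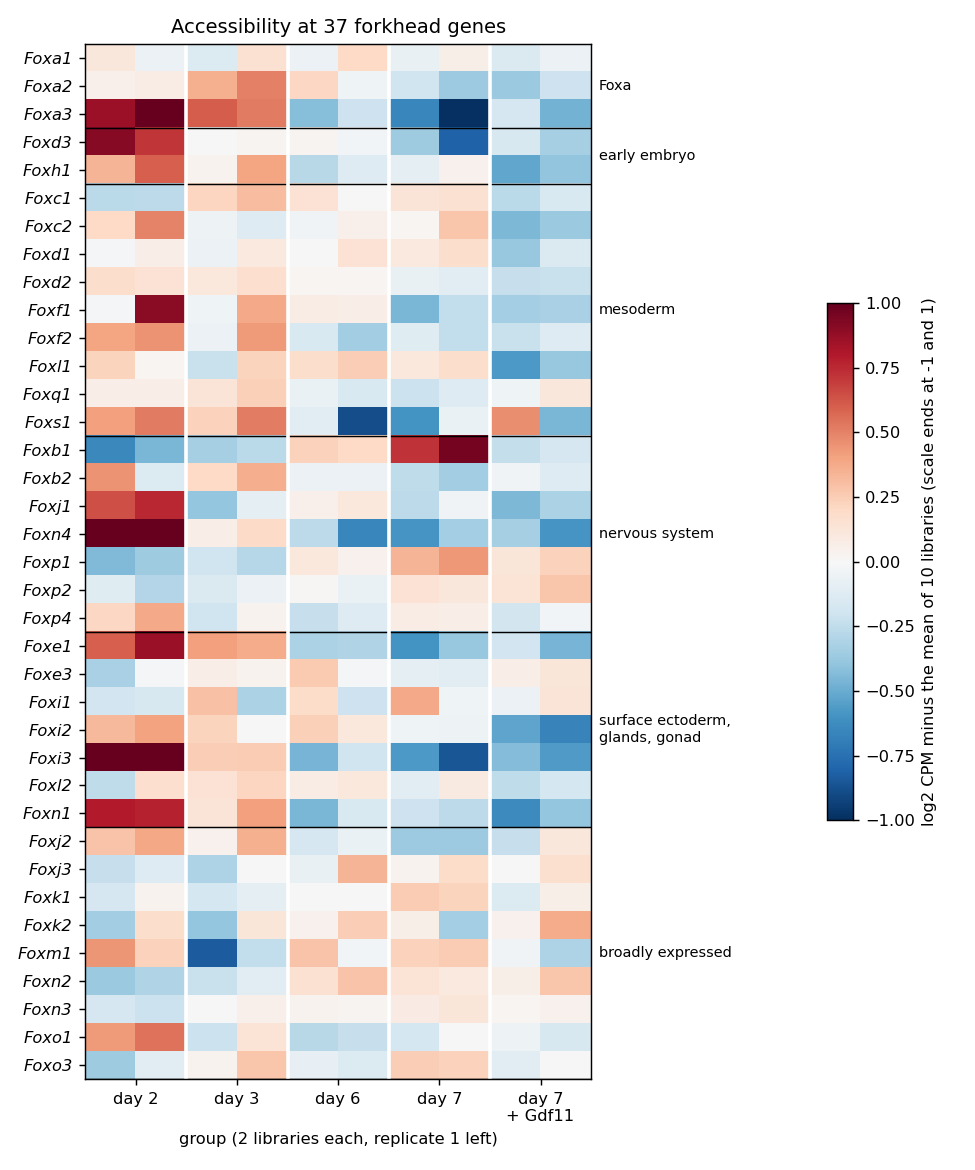
Heat map of the log2 CPM (scaled counts) of 37 forkhead genes (rows, grouped by role) in 10 libraries (columns, 2 per group, replicate 1 left), each minus the gene's mean over the libraries, with the colour scale ending at -1 and 1. Foxi3, Foxn4, Foxa3 and Foxd3 were highest on day 2, and Foxb1 was highest in the 2 untreated day 7 libraries.

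Of the 3 Foxa genes, pioneer factors of endoderm and midline, Foxa2 and Foxa3 fell from day 3 to day 6 and Foxa1 was not called. Foxa2 stood at 79.1 and 80.5 CPM (counts scaled to a common library size with TMM factors) on day 2, 97.9 and 108 on day 3, 88.1 and 74.4 on day 6, 66.6 and 59.5 on day 7, and 59.1 and 66.2 with Gdf11. The day 3 libraries were the highest of the series, and the untreated day 7 and Gdf11 libraries overlapped. The Foxa2 sum rose 1.29-fold from day 2 to day 3 (log2 change 0.37 ± 0.11, SE, adjusted p = 0.0116), fell by 0.33 ± 0.11 on the log2 scale to day 6 (adjusted p = 0.0216), and fell by 0.37 ± 0.11 to day 7 (adjusted p = 0.0439). Each of these calls needed particular libraries: the rise was 0.28 without day 3 replicate 2 (adjusted p = 0.117) and was also lost without either day 2 library, the fall to day 6 was -0.22 without day 6 replicate 2 (adjusted p = 0.268) and -0.27 without day 3 replicate 2 (adjusted p = 0.127), and the fall to day 7 was lost without any 1 of its 4 libraries, with adjusted p from 0.0593 to 0.452.

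Single regions of Foxa2 went different ways. A region 5698 bp outside the span, chr2:148036800-148037178, rose 10.5-fold from day 2 to day 3, from 0.94 and 0.78 CPM to 9.34 and 9.24 (adjusted p = 2.55e-09). It held 36.2% of the rise of the sum. The promoter region inside the gene, chr2:148046007-148046594, had 24.7 and 27.9 CPM on day 3 and 11.7 and 11.4 on day 6, a 2.27-fold fall (adjusted p = 4.57e-05) that made up 67.6% of the fall of the sum. From day 3 to day 6, 3 regions of Foxa2 rose while 2, the promoter region among them, fell.

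Foxa3, which acts in liver and gut endoderm, had 14.5 and 17.5 CPM on day 2, 12.2 and 11.6 on day 3, 5.99 and 6.98 on day 6, 5.13 and 3.54 on day 7, and 7.17 and 5.81 with Gdf11. Every library of days 6 and 7 lay below every library of days 2 and 3. The fall from day 3 to day 6 was 1.86-fold (-0.89 ± 0.24, adjusted p = 0.00678). It was no longer called without day 3 replicate 1 (-0.84, adjusted p = 0.0530) or without day 6 replicate 1 (-0.75, adjusted p = 0.119). Its promoter region, chr7:19023393-19023815, which contains all 250 bases printed above, went from 7.19 ± 0.164 to 2.82 ± 0.264 CPM (SD, n = 2) and made up 80.8% of that fall. Foxa1 lay between 45.1 and 57.2 CPM in all 10 libraries and was called in no comparison.

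Of the 2 genes of the early embryo, Foxd3 fell from day 2 to day 3, and Foxh1 did not pass the test in that step (-0.26 ± 0.14, adjusted p = 0.182). Foxd3 had 70.6 and 61.5 CPM on day 2, 37.5 and 38.1 on day 3, 38.3 and 36.8 on day 6, 29.2 and 21.4 on day 7, and 33.5 and 29.7 with Gdf11. Both day 2 libraries lay above all others. It fell 1.75-fold from day 2 to day 3 (-0.81 ± 0.14, adjusted p = 3.30e-05). A region 13813 bp outside the span, chr4:99641842-99642485, went from 32.8 and 26.7 CPM to 7.90 and 6.21 in that step, a 4.16-fold fall (adjusted p = 2.34e-09) that held 80.5% of the change of the sum. The promoter region, which covers 124 of the 250 bases printed above, went from 5.27 ± 1.72 to 2.85 ± 0.770 CPM and did not pass the test (adjusted p = 0.166), and with regions in the gene span alone the fall of the gene was not called (-0.40, adjusted p = 0.322). A second fall of Foxd3, from day 6 to day 7, was 1.46-fold (-0.55 ± 0.14, adjusted p = 0.0194), spread over all 15 regions. It was -0.33 without day 7 replicate 2 (adjusted p = 0.379) and was also lost without either day 6 library.

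Foxh1, the Smad partner of Nodal signalling, had only 3 regions, all in its short span. Its sum was 44.0 and 52.7 CPM on day 2, 35.7 and 45.6 on day 3, 28.7 and 31.7 on day 6, 32.6 and 35.8 on day 7, and 24.3 and 26.5 with Gdf11. It fell 1.34-fold from day 3 to day 6 (-0.42 ± 0.14, adjusted p = 0.0336), and this was lost without day 3 replicate 2 (-0.26, adjusted p = 0.303), day 6 replicate 1 (-0.32, adjusted p = 0.271) or day 6 replicate 2 (-0.49, adjusted p = 0.0540). Of the 17 genes listed for the Nodal pathway, 16 were tested, and 4 of them (against 10.8% of all genes) fell from day 3 to day 6: Lefty2 (-1.45 ± 0.14), Lefty1 (-1.03 ± 0.16) and Nodal itself (-1.01 ± 0.14), which are ligands and feedback inhibitors, and Gdf3. In the same step Smad3 and Acvr2b rose (9.54% of all genes did). Smad3, a partner of Foxh1 like Smad2, rose further to day 7 (0.54 ± 0.10) and was lower with Gdf11 (-0.69 ± 0.10, adjusted p = 4.39e-06). The median of the 16 was -0.18, beside -0.02 for all genes. Markers of the epiblast moved with these genes: the summed level of 6 such genes ran from 449 to 487 CPM on day 2, from 286 to 298 on day 3 and from 210 to 216 on day 6, and its part in the forkhead changes was not tested.

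The nervous-system group held the rise with the smallest p among the 37 forkhead genes, that of Foxb1. Of its 7 genes, 3 fell from day 2 to day 3 and none rose (42.9% lower, against 10.5% of all genes). Foxj1, the factor of motile cilia, had 52.3 and 56.4 CPM on day 2 and 25.6 and 31.2 on day 3, and between 24.5 and 35.8 in the later libraries. All 7 of its regions were lower on day 3 than on day 2, and the sum fell 1.93-fold (-0.95 ± 0.14, adjusted p = 4.02e-06). Foxn4, a factor of retinal and spinal interneuron progenitors, had 22.3 and 24.8 CPM on day 2, 10.4 and 11.3 on day 3, and between 6.29 and 8.23 later. It fell 2.18-fold (-1.13 ± 0.20, adjusted p = 9.97e-05). Both falls were called under every alternative and without each library in turn.

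Foxb1 gained accessibility at each later step without Gdf11. Its sum was 58.2 and 66.3 CPM on day 2, 72.5 and 75.3 on day 3, 107 and 104 on day 6, 150.4 and 176 on day 7, and 77.1 and 80.9 with Gdf11. The 5 groups did not overlap, and the order from low to high was day 2, day 3, day 7 with Gdf11, day 6 and day 7. The rise from day 2 to day 3 did not pass the test (0.25 ± 0.10, adjusted p = 0.0805), while those to day 6 (0.52 ± 0.10, adjusted p = 0.000222) and to day 7 (0.62 ± 0.10, adjusted p = 4.64e-05) did, a 1.43-fold and a 1.54-fold rise. With Gdf11 the sum was 2.06-fold lower than on untreated day 7 (-1.04 ± 0.10, adjusted p = 4.81e-09) and 1.34-fold lower than on day 6 (-0.42 ± 0.10, adjusted p = 0.0157). The first of these 2 was called under every alternative, with values from -1.16 to -0.88. The second was lost without day 6 replicate 1 (-0.40, adjusted p = 0.157), day 6 replicate 2 (-0.43, adjusted p = 0.0823) or Gdf11 replicate 1 (-0.39, adjusted p = 0.134). The rises were not called with the 2 regions in the gene span alone (0.25, adjusted p = 0.305, and 0.11, adjusted p = 0.767).

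A region 5314 bp outside the Foxb1 span, chr9:69766255-69766862, carried much of this course. It had 2.93 and 3.66 CPM on day 2, 14.9 and 12.4 on day 3, 30.7 and 22.4 on day 6, 46.0 and 63.6 on day 7, and 19.8 and 16.1 with Gdf11. Each untreated step was higher than the last in every library. It rose 2.04-fold from day 6 to day 7 (1.02 ± 0.18, adjusted p = 0.000452), which was 48.9% of the rise of the sum, and this was lost without day 7 replicate 2 (0.81, adjusted p = 0.0757). It was 3.03-fold lower with Gdf11 than on untreated day 7 (-1.60 ± 0.19, adjusted p = 4.12e-08), 43.7% of the difference of the sums. A region over the higher-coordinate end of the gene span, chr9:69760754-69761329, differed in another way. It stood at 30.4 and 31.7 CPM on day 6, 30.1 and 38.0 on day 7 and 13.8 and 16.9 with Gdf11, and on day 2 it had 16.7 and 21.6 CPM, so the treated libraries lay at or below day 2. It was 2.22-fold lower with Gdf11 than on day 7 (adjusted p = 2.49e-05) and 2.03-fold lower than on day 6 (adjusted p = 0.000292). In all, 4 of the 17 tested regions of Foxb1 were lower with Gdf11 than on day 7 and none was higher.

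**Figure D2:**
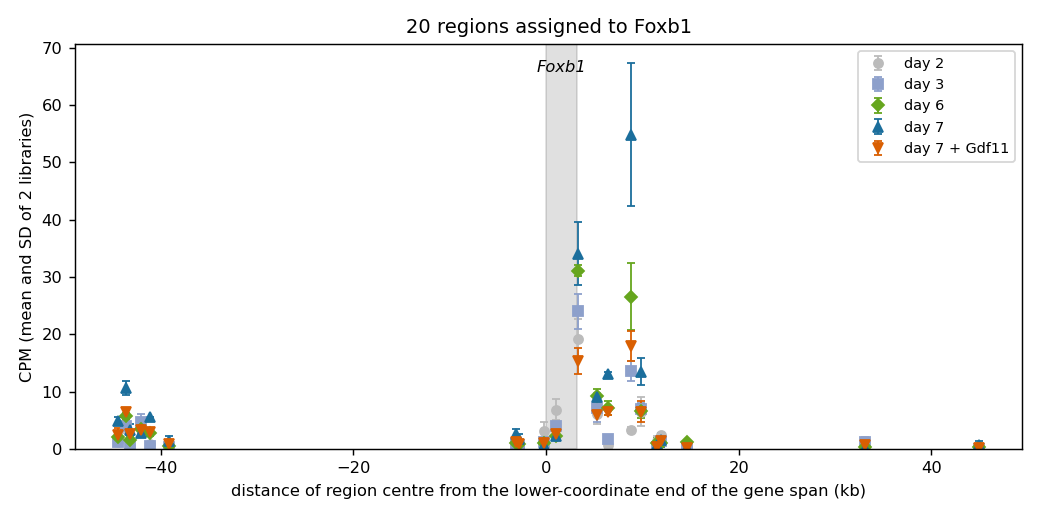
Mean CPM (y axis, with the SD of 2 libraries) of the 20 regions assigned to Foxb1 in the 5 groups, placed by the distance of the region's centre from the lower-coordinate end of the gene span in kb (x axis, span shaded). The region beyond the span with 54.8 CPM on day 7 had 17.9 CPM with Gdf11, and the region over the higher-coordinate end of the span had 34.1 and 15.3 CPM.

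Foxp1, a cofactor of Hox proteins in motor neurons, also rose without Gdf11. Its sum was 199 and 210.5 CPM on day 2, 235 and 221 on day 3, 289.6 and 278 on day 6, 342 and 363 on day 7, and 293 and 316 with Gdf11. It rose 1.24-fold from day 3 to day 6 (0.31 ± 0.08, adjusted p = 0.00288) and 1.24-fold from day 6 to day 7 (0.31 ± 0.08, adjusted p = 0.0125). The first rise was lost without day 3 replicate 2 (0.26, adjusted p = 0.0565). The second was lost without day 6 replicate 2 (0.31, adjusted p = 0.113), without day 7 replicate 2 (0.30, adjusted p = 0.133) and when libraries were scaled by size alone (0.21, adjusted p = 0.151) or by cyclic loess (0.17, adjusted p = 0.153). Of its 115 regions, 83 were higher on day 6 than on day 3. Its region chr6:99013202-99014123 rose from 18.9 and 10.9 to 33.1 and 33.0 CPM between day 6 and day 7 (2.16-fold, adjusted p = 0.00166, lost without day 6 replicate 2 at adjusted p = 0.117 and under DESeq2 at 0.125).

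With Gdf11, 3 of the 72 tested regions of Foxp1 were higher than on day 6 and none was lower. The 2 of them with the lowest p lie inside the span. The region chr6:99451495-99451867 had 0.96 and 1.09 CPM on day 6, 2.16 and 1.77 on untreated day 7, and 6.08 and 6.46 with Gdf11. It had at most 0.52 CPM on days 2 and 3, so the Gdf11 libraries were the highest of the 10, and the difference from day 6 was 6.10-fold (adjusted p = 0.000344). The region chr6:99097131-99097711 was 2.77-fold higher than on day 6 (adjusted p = 0.00864), at 7.17 and 8.72 CPM with Gdf11, and was as high on untreated day 7, at 6.12 and 10.3 CPM. The call was lost without day 6 replicate 1, day 6 replicate 2 or Gdf11 replicate 2 (adjusted p = 0.0829, 0.0859 and 0.139), and under DESeq2 (0.0650).

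Foxp4 and Foxp2 held regions that changed inside sums that moved less. The Foxp4 sum fell 1.30-fold from day 2 (184 and 207 CPM) to day 3 (139 and 164, -0.37 ± 0.09, adjusted p = 0.00257), a call lost without day 3 replicate 1 (-0.29, adjusted p = 0.0573). Its region chr17:47887282-47888330 had 42.1 and 50.9 CPM on day 2, 26.2 and 27.7 on day 3, 11.2 and 12 on day 6, 12.8 and 10.9 on day 7, and 19.0 and 20.3 with Gdf11. It fell 2.32-fold from day 3 to day 6 (adjusted p = 1.94e-06) and was 1.65-fold higher with Gdf11 than on day 7 (adjusted p = 0.0171) and 1.70-fold higher than on day 6 (adjusted p = 0.0131). The treated libraries thus lay between those of day 3 and day 6. The difference from day 7 was lost without any 1 of its 4 libraries (0.59 to 0.84 on the log2 scale, adjusted p from 0.0573 to 0.291), and that from day 6 without day 6 replicate 1, day 6 replicate 2 or Gdf11 replicate 2 (adjusted p = 0.225, 0.0577 and 0.136). At Foxp2, a gene of speech and motor circuits, the sum was called in no comparison. Of its 35 tested regions, 2 rose from day 3 to day 6 and 3 fell. The 2 that rose lie in its span. Region chr6:15067347-15067727 went from 2.89 and 2.02 to 13.8 and 11.4 CPM (4.99-fold, adjusted p = 7.44e-08), and chr6:15404952-15405579 from 2.55 and 1.73 to 10.5 and 9.58 CPM (4.53-fold, adjusted p = 3.25e-07).

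At Foxb2, the sister gene of Foxb1, the sum ran from 13.6 to 23.6 CPM and was called in no comparison. Its region chr19:16901665-16901929, 27834 bp outside the span, had between 1.69 and 2.38 CPM in the 8 libraries of days 2, 3, 6 and Gdf11, and no count in either untreated day 7 library. Against 35 counts on day 6 the 0 counts on day 7 were at least 10.5-fold lower (adjusted p = 0.000475), and against them the 40 counts with Gdf11 were at least 11.3-fold higher (adjusted p = 9.60e-05), both bounds set by 3 counts over the group. Of all 246799 regions this was the only 1 with 0 counts in both day 7 libraries and at least 10 in each of the other 8. The same pattern with day 2 as the empty group held for 75 regions, none of them a forkhead region, and for 0 regions with day 3, day 6 or Gdf11 as the empty group.

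**Figure D3:**
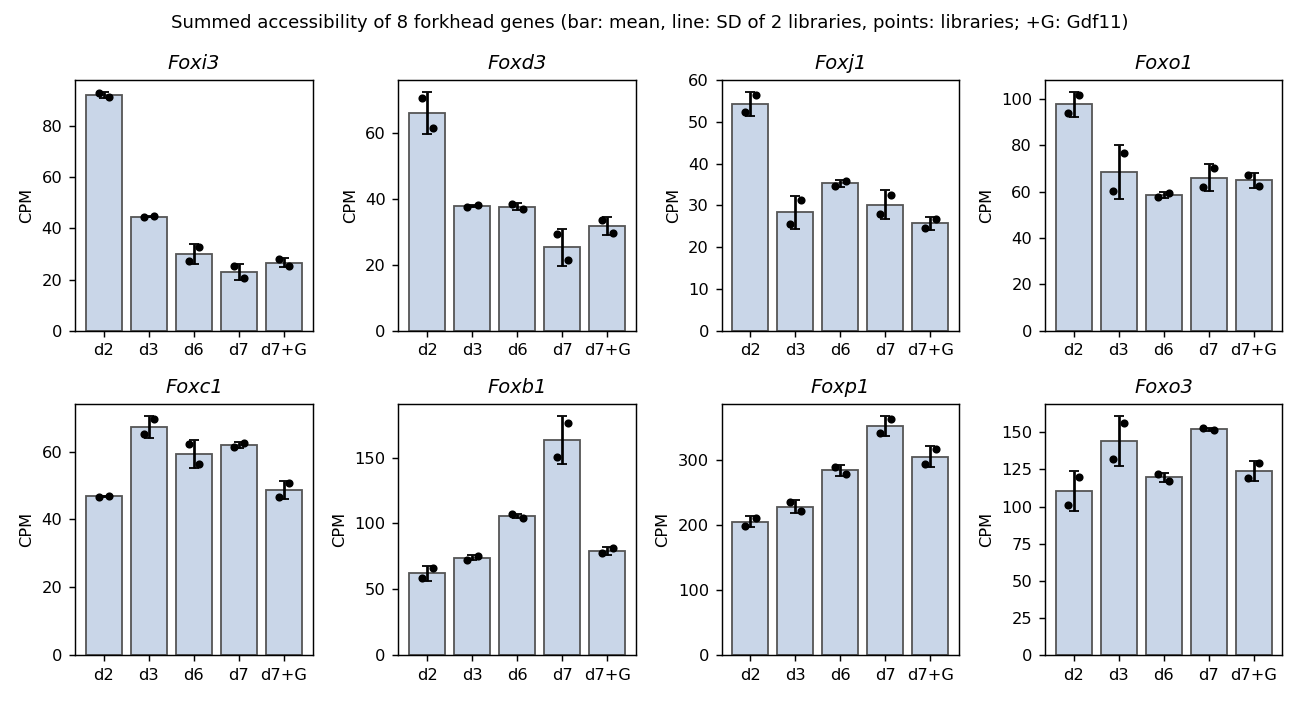
Summed CPM of 8 forkhead genes in the 5 groups (d7+G is day 7 with Gdf11), with bars for the mean, lines for the SD of 2 libraries and points for the libraries. Foxi3, Foxd3, Foxj1 and Foxo1 were highest on day 2, Foxb1 and Foxp1 on untreated day 7, and the 2 Gdf11 libraries of Foxb1 lay at 77.1 and 80.9 CPM.

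Of the 7 genes of surface ectoderm, glands and gonad, 1 (Foxi3) fell from day 2 to day 3 and 2 (Foxi3 and Foxe1) fell from day 3 to day 6, which is 14.3% and 28.6% of them, against 10.5% and 10.8% of all genes called lower. Foxi3, a factor of otic placode, pharyngeal arches and hair follicles, had 93.3 and 91.5 CPM on day 2, 44.5 and 44.7 on day 3, 27.2 and 32.7 on day 6, 25.2 and 20.8 on day 7, and 27.9 and 25.3 with Gdf11. The libraries of days 2, 3 and 6 did not overlap, and those with Gdf11 overlapped with day 6. It fell 2.07-fold from day 2 to day 3 (-1.05 ± 0.13, adjusted p = 6.95e-08) and 1.5-fold from day 3 to day 6 (-0.59 ± 0.13, adjusted p = 0.00130). Region chr6:70964012-70964784, 2945 bp outside the span, went from 56.1 and 54.3 to 15.2 and 13.9 CPM from day 2 to day 3, a 3.78-fold fall (adjusted p = 1.27e-11) and 85.2% of the change of the sum. The Foxi3 promoter region, which contains all 250 bases printed above, went from 19.2 ± 0.229 to 16.2 ± 1.78 CPM and did not pass the test (adjusted p = 0.501). With regions in the span alone neither fall was called (-0.20, adjusted p = 0.495, and -0.29, adjusted p = 0.352), and the second was also lost without day 6 replicate 1 (-0.43, adjusted p = 0.0920).

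Foxe1, a thyroid factor, had 29.6 and 35.6 CPM on day 2, 25.9 and 25.3 on day 3, and 15.7 and 15.9 on day 6, with no later library above 17.1. It fell 1.63-fold from day 3 to day 6 (-0.70 ± 0.17, adjusted p = 0.00253), and this was called under every alternative and without each library. Foxi2, a gene of the cranial ectoderm, was the only other gene of the group to be called: it was lower with Gdf11 (10.6 and 9.58 CPM) than on day 7 (14.8 and 14.7, -0.55 ± 0.19, adjusted p = 0.0484) and day 6 (18.0 and 16.4, -0.77 ± 0.19, adjusted p = 0.0176). Without any 1 of the 4 libraries neither call held, with adjusted p from 0.126 to 0.158 and from 0.0629 to 0.218. Its region chr7:135392919-135393389 had 7.51 and 7.80 CPM on day 6, 6.03 and 5.01 on day 7, and 2.36 and 1.29 with Gdf11, a 4.07-fold difference from day 6 (adjusted p = 0.000221) that made up 81.7% of the difference of the sums. Foxe3, Foxi1, Foxl2 and Foxn1 were not called. Foxi1 was the thinnest of these, with 22 to 57 counts per library, so its log2 changes carried standard errors of up to 0.36.

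Of the 9 mesodermal genes, Foxc1 and Foxc2, both factors of the somites and vessels, moved apart from day 2 to day 3. Foxc1 had 46.7 and 46.8 CPM on day 2, 65.1 and 69.6 on day 3, 62.2 and 56.4 on day 6, 61.4 and 62.5 on day 7, and 46.7 and 50.6 with Gdf11. It rose 1.44-fold to day 3 (0.52 ± 0.12, adjusted p = 0.00105). A region 45813 bp outside the span, chr13:31760266-31760832, went from 1.05 and 0.52 to 16.8 and 15.6 CPM, a 19.8-fold rise (adjusted p = 1.68e-13) and 75.0% of the change of the sum. It stood at 7.05 ± 1.45 CPM on day 6 and 3.72 ± 0.467 on day 7. The promoter region of Foxc1, which contains all 250 bases printed above, went from 17.2 ± 0.321 to 22.2 ± 1.42 CPM and did not pass the test (adjusted p = 0.193). With only regions within 10 kb the rise of the gene was 0.17 and was not called (adjusted p = 0.372), a window that leaves the far region out.

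Foxc2 lies 8.79 kb from Foxl1 and 28.0 kb from Foxf1 on chromosome 8, so regions between them were divided by distance. It had 25.7 and 31.5 CPM on day 2 and 21.6 and 20.5 on day 3, a 1.35-fold fall (-0.44 ± 0.16, adjusted p = 0.0475), lost without day 2 replicate 2 (-0.33, adjusted p = 0.229), day 3 replicate 1 (-0.51, adjusted p = 0.0829) or day 3 replicate 2 (-0.42, adjusted p = 0.131). Foxq1, Foxf2 and Foxc1 lie in a similar row on chromosome 13, at gaps of 64.8 and 175 kb. Foxf2 was not called as a sum, but its promoter region, chr13:31625294-31626061, fell from 11.1 ± 2.92 to 5.45 ± 0.0278 CPM from day 3 to day 6 (adjusted p = 0.0102). No mesodermal gene was called from day 3 to day 6 or from day 6 to day 7, and DESeq2 called none in these steps either. At an unadjusted p under 0.05 there were 2 and 0 of the 9, beside 6031 and 3466 of all 18649 genes. From day 3 to day 6, however, Foxf2 was called lower with library sizes alone, cyclic loess, the replicate block, regions in the span alone, without mitochondrial regions and without day 3 replicate 1, at -0.42 with TMM, and Foxq1 was called lower with regions in the span alone or within 10 kb.

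With Gdf11, 4 of the 9 mesodermal genes were lower than on untreated day 7 and none was higher (of all genes, 11.4% were lower and 2.11% higher). With library sizes alone none of these 4 was called. Foxl1, a gene of gut mesenchyme, had 27.2 and 28.4 CPM on day 7 and 17.0 and 19.4 with Gdf11, 1.53-fold lower (-0.61 ± 0.16, adjusted p = 0.0102). It was also 1.61-fold lower than on day 6 (28.5 and 30.0 CPM, -0.69 ± 0.16, adjusted p = 0.0156). Its region chr8:121125285-121125913 held 91.2% of the difference from day 7, at 20.5 CPM there and 11.7 with Gdf11. Foxc2 had 22.8 and 27.1 CPM on day 7 and 16.4 and 17.3 with Gdf11, 1.47-fold lower (-0.56 ± 0.17, adjusted p = 0.0212). Foxd1, of somites and kidney stroma, had 55.8 and 58.8 CPM on day 7 and 40.1 and 47.2 with Gdf11, 1.31-fold lower (-0.39 ± 0.12, adjusted p = 0.0256), and Foxc1 was 1.27-fold lower (-0.35 ± 0.11, adjusted p = 0.0358). In all 4 genes both treated libraries lay below both untreated ones. None of the 4 calls held without day 7 replicate 2 (adjusted p = 0.0602, 0.158, 0.114 and 0.115) or without Gdf11 replicate 1 (0.118, 0.136, 0.251 and 0.210), and those of Foxd1 and Foxc1 were also lost without day 7 replicate 1 (0.0666 and 0.110). The Foxl1 call against day 6 was lost without day 6 replicate 1, day 6 replicate 2 or Gdf11 replicate 1 (adjusted p = 0.107, 0.120 and 0.200).

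The remaining members lower with Gdf11 than on untreated day 7 were Foxk1, Foxo3, Foxh1 and Foxi2. At Foxh1 the region chr15:76671331-76671854 held 105% of the difference, and the other 2 of its 3 regions had a higher mean with Gdf11. Foxk1, a repressor of autophagy genes, had 218 and 213 CPM on day 7 and 167 and 191 with Gdf11 (-0.27 ± 0.09, adjusted p = 0.0307), and Foxh1 was 1.34-fold lower (-0.43 ± 0.15, adjusted p = 0.0473). The Foxk1 region chr5:142457456-142457733 went the other way, from 0.72 and 0.74 to 2.62 and 3.55 CPM (4.16-fold, adjusted p = 0.0177), which was lost under DESeq2 and without any 1 of the 4 libraries (adjusted p from 0.0527 to 0.173). The calls of Foxk1, Foxo3 and Foxh1 did not hold without day 7 replicate 1 (adjusted p = 0.136, 0.123 and 0.0814), day 7 replicate 2 (0.0755, 0.0865 and 0.189) or Gdf11 replicate 1 (0.267, 0.178 and 0.234).

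How the libraries are scaled bears on the Gdf11 comparison with day 7. The median log2 change of all genes was -0.10 with TMM factors and 0.06 with library sizes alone, and all genes called were split as 394 higher and 2132 lower in the first case and 974 higher and 576 lower in the second. Relative to the median of all genes the change of Foxb1 was -0.94 with TMM and -0.88 with cyclic loess, that of Foxl1 -0.52 and -0.50, and that of Foxk1 -0.17 and -0.09. Library sizes alone shift all genes and the median nearly alike, so they leave these relative values as with TMM by construction. The split of all called genes also moved from 681 higher and 131 lower to 331 and 312 between day 6 and day 7, and from 119 and 240 to 256 and 186 between day 6 and Gdf11. With library sizes alone, Foxb1 was the only member called lower, and Foxd3 (0.46) and Foxj2 (0.46) were called higher. Cyclic loess gave 4 members, with Foxb1 and Foxl1 lower and the same 2 higher. For the 9 called members the sign of the log2 change was negative under each scaling, while Foxa1, Foxa2, Foxd2, Foxf2, Foxj3, Foxn3 and Foxo1 went from a value below 0 with TMM to above 0 with library sizes alone.

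**Figure D4:**
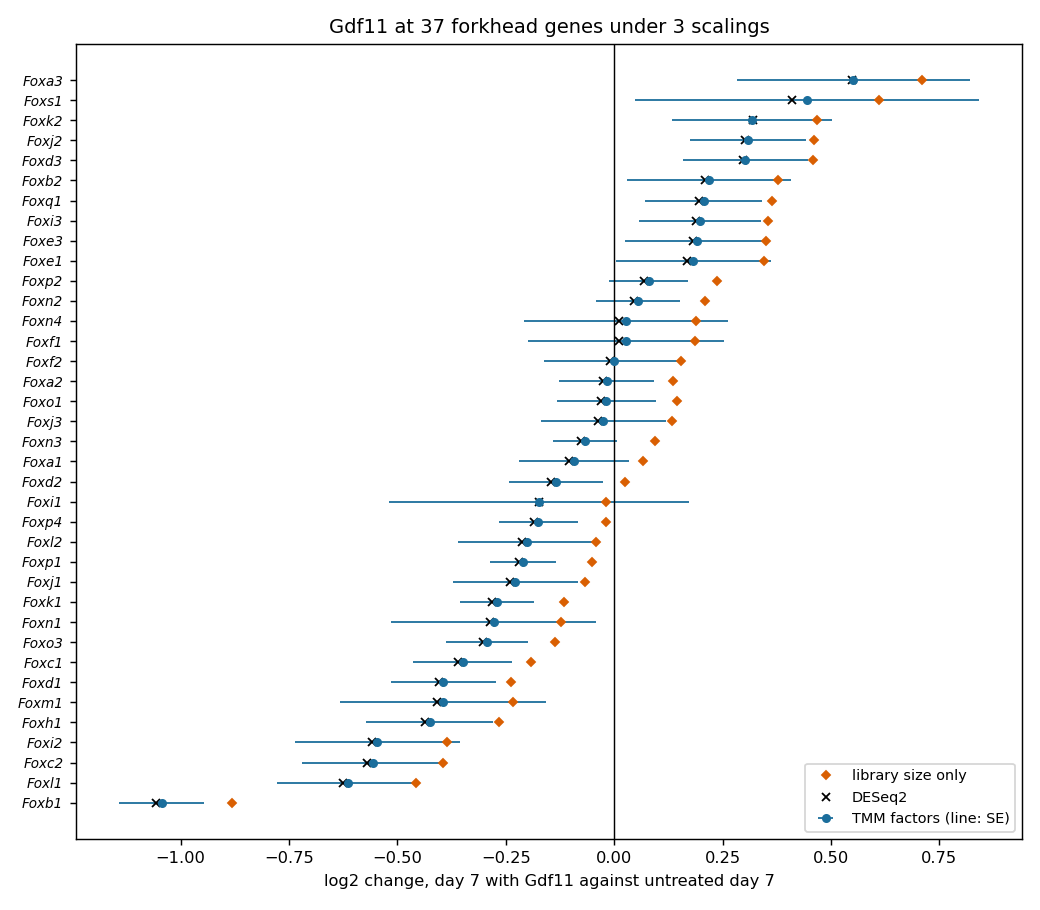
Log2 change of 37 forkhead genes (rows) between day 7 with Gdf11 and untreated day 7 under TMM factors (circles, line for the SE), DESeq2 size factors (crosses) and library size only (diamonds). Library sizes alone moved all genes to the right, from -1.04 to -0.88 for Foxb1, which stayed the lowest.

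Of the 9 broadly expressed members, Foxo1 and Foxo3 moved in opposite directions from day 2 to day 3. Foxo1 had 93.7 and 102 CPM on day 2, 60.1 and 76.8 on day 3, and between 57.7 and 70.1 later. It fell 1.44-fold (-0.52 ± 0.11, adjusted p = 0.000862), and 87.0% of the change lay in chr3:52253998-52254511, 13825 bp outside the span, at 37.5 CPM on day 2 and 12.2 on day 3. With regions within 10 kb alone the fall was -0.02 and was not called (adjusted p = 0.950). Foxo3 had 101 and 119.8 CPM on day 2, 132 and 156 on day 3, 122 and 117 on day 6, 153 and 151 on day 7, and 119 and 129 with Gdf11. It rose 1.31-fold to day 3 (0.39 ± 0.10, adjusted p = 0.00328), fell 1.2-fold to day 6 (-0.26 ± 0.10, adjusted p = 0.0437), rose 1.27-fold to day 7 (0.35 ± 0.10, adjusted p = 0.0280) and was 1.23-fold lower with Gdf11 (-0.29 ± 0.09, adjusted p = 0.0333). A region 844 bp beyond the span, chr10:42277540-42278397, held 54.6%, 59.6% and 60.3% of the first 3 changes. The rise to day 3 was lost without day 2 replicate 1 (adjusted p = 0.107) or day 3 replicate 2 (0.107), and the fall to day 6 without day 3 replicate 2, day 6 replicate 1 or day 6 replicate 2 (0.360, 0.144 and 0.189). The rise to day 7 was lost without any 1 of its 4 libraries (adjusted p from 0.0772 to 0.132), with library sizes alone (0.24, adjusted p = 0.114) and with cyclic loess (0.22, adjusted p = 0.139).

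Inside the Foxo3 span, chr10:42192854-42193323 had 0.94 and 1.44 CPM on day 2, 3.31 and 2.31 on day 3, 7.91 and 7.66 on day 6, 9.81 and 11 on day 7, and 2.36 and 1.51 with Gdf11. The treated libraries lay within the range of days 2 and 3, 5.25-fold below day 7 (-2.39 ± 0.34, adjusted p = 2.18e-06) and 3.94-fold below day 6 (-1.98 ± 0.34, adjusted p = 0.000168). Both differences were called under every alternative and without each library in turn. Of 18 genes listed for the PI3K, Akt and Foxo pathway, 6 rose from day 2 to day 3 (22.8% of all genes changed in either direction), led by the kinase subunits Pik3ca (0.68 ± 0.12) and Pik3r1 (0.39 ± 0.08). The median of the list was 0.16 in that step, beside 0.00 for all genes. With Gdf11, 3 of the 18, or 16.7%, were lower than on day 7 (Bcl6, Cdkn1b and Igf1r), near the 11.4% of all genes, and none was higher.

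Foxn3, a gene of cell cycle checkpoints with 89 regions, had 245.5 and 237 CPM on day 2 and 276 and 285 on day 3 (1.16-fold, 0.22 ± 0.07, adjusted p = 0.0321), a rise that was not called without any 1 of the 4 libraries (0.14 to 0.24, adjusted p from 0.0668 to 0.285), under DESeq2 (0.17), with library sizes alone (0.20) or with cyclic loess (0.06). Its single regions changed far more. Region chr12:99329293-99330204 went from 10.1 and 7.58 to 51.4 and 52.8 CPM from day 2 to day 3 (5.83-fold, adjusted p = 1.35e-15) and back to 32.1 and 25.6 on day 6 (1.79-fold lower, adjusted p = 0.000259). Region chr12:99412084-99413130 fell from 52.1 and 51.3 to 17.2 and 13.3 CPM in the first step (3.35-fold, adjusted p = 7.99e-10). Another, chr12:99220357-99220756, rose from 16.1 and 15.9 on day 6 to 30.7 and 29.0 on day 7 (1.87-fold, adjusted p = 0.00724), and this was lost without day 6 replicate 1, day 6 replicate 2 or day 7 replicate 1 (adjusted p = 0.0802, 0.0892 and 0.0816). The rise in the first region was larger than that of the whole sum, at 110% of it.

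Foxn2 rose 1.31-fold from day 3 (83.1 and 89.8 CPM) to day 6 (107.5 and 118, 0.39 ± 0.10, adjusted p = 0.00415), a call lost without day 3 replicate 1 (adjusted p = 0.0551) or day 6 replicate 2 (adjusted p = 0.0689). Its region chr17:88400176-88400555, 40148 bp outside the span, went from 2.04 and 2.74 to 12.7 and 8.21 CPM (4.54-fold, adjusted p = 2.16e-06). Foxm1, which drives mitotic genes, had only 2 regions, 1 of them as near to Tex52, and 52 to 136 counts per library. It fell 1.86-fold to day 3 (-0.90 ± 0.25, adjusted p = 0.00820) and rose 1.63-fold to day 6 (0.71 ± 0.25, adjusted p = 0.0400), both lost without day 3 replicate 1 (-0.63, adjusted p = 0.152, and 0.41, adjusted p = 0.407). The fall was also lost without day 2 replicate 1 (adjusted p = 0.0685) and the rise without day 6 replicate 1 (adjusted p = 0.308). Region chr6:128375118-128375557, inside the Foxm1 span, held 113% of that fall and 111% of that rise, and the other Foxm1 region went the opposite way. Foxj2, Foxj3 and Foxk2 were not called in any comparison.

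The 15 members that no comparison called with TMM factors still differed in how steady they were. Foxn1, the thymus and skin factor, had 16.5 and 16.3 CPM on day 2, 10.4 and 12.7 on day 3, 6.95 and 8.62 on day 6, 8.28 and 7.95 on day 7, and 6.16 and 7.32 with Gdf11. Both day 2 libraries of Foxn1 were the highest of the 10, although no single step passed the test. Foxj2 ran from 58.1 and 62.2 CPM on day 2 to 37.1 and 37.1 on day 7, and its Gdf11 libraries, at 40.6 and 51.7, lay above day 7. It was called lower from day 3 to day 6 with library sizes alone, cyclic loess, the replicate block, regions in the span alone and without day 3 replicate 1. Among the mesodermal genes, Foxd2 ran from 52.9 to 69.9 CPM over the 10 libraries, Foxf1 from 11.1 to 28.4, Foxf2 from 21.3 to 37.0, Foxq1 from 29.7 to 40.6 and Foxs1 from 1.92 to 5.10. In Foxf1 the extremes came from replicates of day 2 (15.1 and 28.4) and from day 7, so its spread within a group was as wide as that between groups. Foxe3 ran from 16.4 to 24.7 CPM, Foxi1 from 3.18 to 5.13, Foxl2 from 21.2 to 29.4, Foxj3 from 28.6 to 45.0, Foxk2 from 17.0 to 28.7 and Foxp2 from 95.8 to 142.

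Counted by region, 73 of the 495 tested forkhead regions changed from day 2 to day 3 (14.7%, against 13.2% of all 173175 regions), with 42 higher and 31 lower (8.82% and 4.35% of all regions). From day 3 to day 6, 89 changed, 55 higher and 34 lower (18.0%, against 15.2%, 9.19% higher and 6.05% lower), and from day 6 to day 7, 8 changed, 7 higher and 1 lower (1.62%, against 1.18%, 0.974% higher and 0.207% lower). With Gdf11, 5 were higher and 13 lower than on day 7 (3.64%, against 3.73%, 1.09% higher and 2.65% lower), and 6 were higher and 8 lower than on day 6 (2.83%, against 2.40%, 1.06% higher and 1.34% lower). Regions that rose and regions that fell were found within the same gene in 9 members from day 2 to day 3, 12 from day 3 to day 6, 0 from day 6 to day 7, 3 with Gdf11 against day 7 and 0 with Gdf11 against day 6. In the first 2 steps, 10 and 15 members had a called region although their sum was not called. Both kinds of count depend on the number of regions per gene, which ran from 2 to 115. Their shares over all genes were not computed, so they are not read as a trait of forkhead genes. Of the 23 tested regions at promoters, 1 changed from day 2 to day 3 (Foxp1, higher), 4 from day 3 to day 6 (Foxa2, Foxa3, Foxf2 and Foxn4, all lower) and 0 in the other 3 comparisons. Promoters were known for 24 members only, and Foxb1 was not among them. Peaks called in both libraries of a group covered 202 of the 668 regions on day 2, 171 on day 3, 156 on day 6, 188 on day 7 and 179 with Gdf11, and 78 in all 10 libraries. All peaks of a library numbered from 80504 (day 6 replicate 2) to 118603 (day 2 replicate 1). The share over all regions was not computed, so these counts are not read as a change at forkhead regions. DESeq2 called 41, 51, 5, 10 and 8 forkhead regions in the 5 comparisons, with an adjusted p for 416, 416, 164, 303 and 371 of them. Over all regions with an adjusted p it called 12846 of 141532, 16071 of 141532, 1575 of 50619, 3598 of 98468 and 1727 of 122392.

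Partner genes of the Foxa and Foxc factors and the markers of other cells give the setting. Of 12 axial and floor plate genes, 5 rose from day 3 to day 6 and 1 fell, and 5 were lower and 1 higher with Gdf11 than on day 7. Of all genes, 9.54% rose and 10.8% fell in the first of these comparisons, and 11.4% were lower and 2.11% higher in the second. The axon guidance gene Slit1 rose by 1.04 ± 0.09 on the log2 scale to day 6 and by 0.64 ± 0.09 to day 7 and was lower with Gdf11 (-0.68 ± 0.09), and the midline guidance gene Ntn1 was lower too (-0.59 ± 0.09). Of 14 somite and mesoderm genes, 4 were lower with Gdf11 than on day 7 (28.6%, against 11.4% of all genes) and none was higher, led by Meox1 (-1.21 ± 0.15) and the Notch ligand Dll1 (-0.64 ± 0.10). The summed level of 8 caudal epiblast markers ran from 199 to 212 CPM on day 2, 458 to 479 on day 3, 372 to 386 on untreated day 7 and 281 to 284 with Gdf11. That of 10 endoderm markers ran from 275 to 288 CPM on day 7 and 229 to 234 with Gdf11, and none of these genes was at 0 in any library. That of 12 fibroblast genes ran from 398 to 436 CPM on day 2, 464 to 484 on day 7 and 465 to 499.8 with Gdf11, and 8 neural crest markers from 500.0 to 538 and 492 to 499.4. In the list of 9 lateral plate, heart, vessel and blood genes, 1 gene was at 0 in at least 1 library, and the sum ran from 269 to 280 CPM on day 7 and 274 to 295 with Gdf11. The part of such cells in the forkhead values was not tested.

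The authors' deposited motif tables list 414 motifs for each step, 16 of them of forkhead factors, with the share of target and of background regions that hold the motif. How the target regions were chosen is not stated. In the authors' deposited table of regions that went up from day 3 to day 6, the Foxo1 motif CTGTTTAC lay in 43.93% of 10615 target and 36.75% of background regions, a ratio of 1.2 with an enrichment score (natural log of p) of -118.6 and rank 68 of 414. Foxo3 had a ratio of 1.37 in that table (18.19% against 13.25%), and in the authors' deposited table for day 2 to day 3, up, a ratio of 1.36 at rank 72. The same motifs were also above background in the authors' deposited tables of regions that went down, where FOXP1 led from day 2 to day 3 (10.77% against 6.5%, ratio 1.66, rank 42) and FOXK1 from day 7 to day 7 with Gdf11 (29.19% against 22.87%, ratio 1.28, rank 64). The Foxh1 motif had ratios in the authors' deposited tables for all peaks of 1.38 down and 1.16 up from day 2 to day 3, and of 1.12 down and 1.28 up with Gdf11, against 0.742 up with Gdf11 in the authors' deposited table for joined peaks. The median ratio of the 16 motifs ran from 1.04 (day 6 to 7, up) to 1.22 (day 2 to 3, down) in the authors' deposited tables for all peaks, and from 0.923 (day 6 to 7) to 1.3 (day 7 to day 7 with Gdf11) in the authors' deposited tables for joined peaks, which here cover regions that went up and rest on 47 and 49 regions in these 2 steps. Many of these motifs hold the same core, so the 16 are not independent, and the authors' deposited tables for day 6 to day 7 rest on only 154 regions down and 1257 up.

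**Figure D5:**
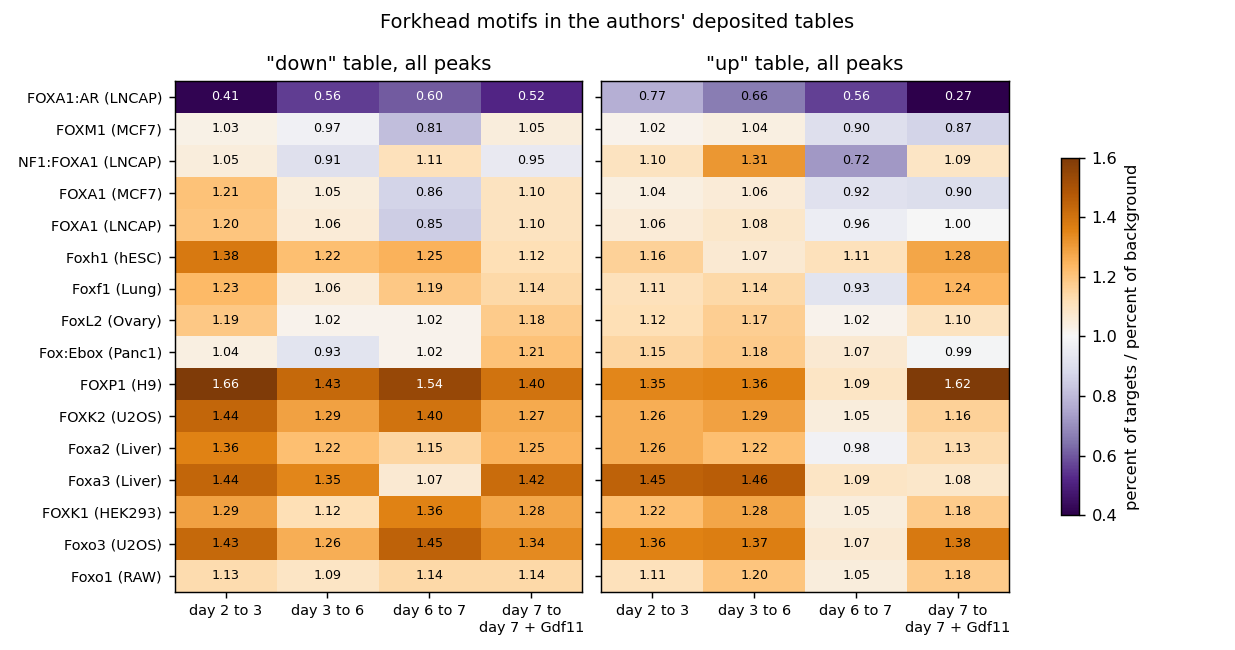
Ratio of the percent of target regions to the percent of background regions holding each of 16 forkhead motifs (rows, with the cells in which the motif was defined) for 4 steps (columns) in the authors' deposited tables of regions that went down (left) and up (right), with the colour scale ending at 0.4 and 1.6. FOXP1 and Foxo3 had ratios above 1 in all 8 columns, from 1.09 to 1.66 and from 1.07 to 1.45. The ratios of Foxo1, FOXK1, FOXK2, Foxh1, FoxL2 and Foxa3 were above 1 in all columns as well.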

How the data were processed

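ATAC-seq count files and peak lists of 10 libraries, with motif tables, were used. The counts are whole numbers of reads per merged region, not normalized, as deposited. The deposited peak lists give a signal fold as a ratio, a score, and p and q as −log10 values, per the file headers; they were used only for positions and for peaks of each library. The authors' deposited motif tables give percent of regions with a motif and a natural log p score. The submitters' processing notes name HISAT2 2.1.0, SAMtools, MACS2 2.1.1.20160309, bedtools, HOMER 4.10 and mm10, with no role or order. Region positions were rebuilt by merging the peak lists and sorting by chromosome name, which gave as many regions as count rows. With this order no library had a count of 0 in its own peaks, against 1095 to 9931 in a numeric chromosome order, so positions rest on this match.

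Regions were assigned within 50 kb, summed per gene and tested with edgeR 4.0.16 (TMM, quasi-likelihood, all 10 libraries in one fit, Benjamini-Hochberg) in R 4.3.3. DESeq2 1.42.0 and limma 3.58.1 (cyclic loess) served as alternatives. Changes are log2 ± SE, with coordinates 1-based. On simulated data for day 3 against day 2 (18507 genes), 65 of 100 genes changed 1.5-fold and 98 of 100 changed 2-fold were recovered, and 8 unchanged genes were called. The simulation gave all genes the same spread and changed only these genes, which were drawn above a minimum count. It does not cover thin genes, spreads that differ between genes or data in which many genes change. The text gives every called forkhead gene and, per comparison and direction, up to 3 called regions with the lowest p, and from the pathway lists values for up to 3 called genes with the lowest p. Members and lists were chosen with earlier results of these data known. Leaving out mitochondrial regions, which held 9.25% to 13.4% of counts, was an alternative chosen after seeing the data. The depth of 7150334 to 12335735 counts limits single regions more than sums; reads carry no molecular identifiers, so counts of 0 cover counting error only. For 1 further gene of the pathway lists the result is not reported here.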

Additional observations from a re-analysis of the deposited data

How the results depend on the processing

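The numbers of forkhead genes called were 12, 10, 5, 9 and 3 (day 3 against 2, day 6 against 3, day 7 against 6, Gdf11 against day 7, Gdf11 against day 6). Leaving out 1 library gave 8 to 10, 6 to 10, 1 to 3, 1 to 9 and 0 to 3. With regions in the gene span alone they were 6 (day 3), 1 (day 7), 2 (Gdf11 against day 7) and 1 (Gdf11 against day 6), and with a 10 kb window 5 for Gdf11 against day 7. Library sizes alone gave 3 for day 7 and 3 for Gdf11 against day 7, and cyclic loess 4 for the latter. The region counts of 73, 89, 8, 18 and 14 became 44 to 59, 45 to 71, 3 to 6, 8 to 13 and 6 to 9 without 1 library, and 41, 51, 5, 10 and 8 with DESeq2. Library sizes alone gave 5 regions for day 7, and cyclic loess 2 for day 7 and 10 for Gdf11 against day 7. The cause of these shifts was not tested beyond the fewer regions or libraries each leaves. Correlations of deviations between libraries of the same replicate number were between -7e-04 and 0.0326. They were taken over single regions, where counting noise is large, so they cannot exclude a shared replicate effect. With the replicate number as a block, 13, 12, 7, 10 and 6 forkhead genes and 75, 92, 11, 21 and 16 forkhead regions were called. Over all genes the block changed the calls from 4245, 3795, 812, 2526 and 359 to 5415, 4816, 1646, 3830 and 1012. No call changed sign. Of the 39 gene calls, 10 were kept under every alternative with all libraries, and 4 of these also without each library: Foxb1 (Gdf11 against day 7), Foxe1, Foxj1 and Foxn4. Requiring a peak to cover 50% of a region left 158, 111, 102, 135 and 118 regions with peaks in both libraries of a group, and a −log10 q of at least 5 left 162, 128, 123, 138 and 131.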
